A study of Mus musculus with 22 samples.

Results

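The 37 genes described here carry the enzymes, transporters and regulators of glycolysis, the entry of pyruvate into the mitochondrion, the pentose phosphate pathway and the hypoxia response. They were taken by symbol from a table of 16059 genes, all 37 were found, and all 37 were among the 12213 genes with enough counts to be tested. RNA was counted in mouse bone marrow-derived macrophages, phagocytes grown from marrow of C57/BL6 mice over 7 days in medium that held L929 supernatant, and then treated for 3 h. The 5 RNA groups, of 2 libraries each, were LPS with lactic acid (LPS+LA), LPS with hydrochloric acid (LPS+HCl), LPS, lactic acid alone (LA) and an untreated control. LPS, or lipopolysaccharide, comes from the outer membrane of bacteria, is sensed through Toll-like receptor 4, and was given at 100 ng/ml. L-(+)-lactic acid was 10 mM beside LPS, and its dose without LPS is not stated in the labels. In LPS+HCl the medium was acidified, with pH 6.5 given as an example, and the pH reached with LA is not stated. Accessible chromatin was mapped with ATAC-seq, where a transposase inserts adapters into open DNA, in LPS+LA, LPS, LA and control, with 3 samples each. The labels do not say whether replicates were separate cultures or animals, and the p-values therefore cover only the spread between these libraries, which may be technical.

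Glycolysis splits glucose into pyruvate and yields ATP and NADH without oxygen. Hexokinase, phosphofructokinase and pyruvate kinase are its controlled steps, and the PFKFB enzymes make and remove fructose 2,6-bisphosphate, the strongest activator of phosphofructokinase. Pyruvate dehydrogenase (PDH) passes pyruvate to the citric acid cycle, and its kinases switch it off while its phosphatases switch it on again. HIF-1 is the transcription factor of the hypoxia response and induces many glycolytic genes, and prolyl hydroxylases of the Egln family mark its alpha subunit for breakdown when oxygen is present. In macrophages, LPS is known to shift metabolism toward glycolysis, and lactic acid is the product that such cells release.

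Each library held 18668666 to 20219895 counts. Markers of macrophages summed to 13298.1 to 15330.4 CPM (counts scaled to library size) in each library, while T cell, B cell, neutrophil, erythroid and fibroblast markers each summed to at most 2.74 CPM. Neuron markers summed to 30.6 CPM in LPS+HCl replicate 2 and 20.1 CPM in control replicate 1, against at most 10.7 CPM in the other 8 libraries. Astrocyte and oligodendrocyte markers summed to 41.7 and 38.3 CPM in LPS+LA, 37.4 and 49.2 CPM in LPS+HCl, 30.8 and 27.7 CPM in LPS, 61.3 and 54.1 CPM in LA, and 57.8 and 54.9 CPM in control. Counts of members that moved by over 1.5 times without the 2 libraries with neuron transcripts are given beside the main counts, and the part of either marker group in the results was not tested.

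The scaling of the libraries matters for every comparison of these genes. TMM scaling, which sets the bulk of genes as unchanged, gave factors of 1 and 1.01 in LPS+LA, 0.889 and 0.903 in LPS+HCl, 0.763 and 0.759 in LPS, 1.15 and 1.17 in LA, and 1.27 and 1.24 in control. Total-count scaling, which takes each library's sum of counts as its size, moved the median log2 fold change over all tested genes by −0.72 for LPS over control, −0.10 for LA over control, 0.40 for LPS+LA over LPS, 0.24 for LPS+HCl over LPS and 0.17 for LPS+LA over LPS+HCl. The files hold no spike-in, so a change in one gene's RNA per cell and a change in all other RNA cannot be told apart, nor can fewer cells and less RNA per cell. CPM below are TMM scaled, log2 values are fold changes from edgeR under TMM, and the total-count value stands beside them where it changes the reading. A gene is called where edgeR's quasi-likelihood test gave a Benjamini-Hochberg adjusted p under 0.05 over all 12213 genes.

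The first comparison asked what LPS did to resting macrophages. Of the 37 members, 19 rose and 7 fell, where 32.4% of all tested genes rose and 32.4% fell. Under total-count scaling 8 members were higher and 26 lower, beside 14.4% and 67.9% of all genes. The members' median log2 was 0.19, against −0.05 over all tested genes, and under total-count scaling −0.53 against −0.77. In both scalings 8 members were higher (Slc2a1, Slc2a6, Hk1, Hk2, Pfkp, Pfkfb3, Pdk3 and Hif1a) and 7 lower (Pfkfb2, Pfkfb4, Pdk1, Pdk2, Pdp1, Egln1 and Egln3). Another 8 members were called higher under TMM and lower by total counts: Aldoa, Tpi1, Gapdh, Pgk1, Eno1, Pkm, Pdhb and Pgd.

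**Figure D1:**
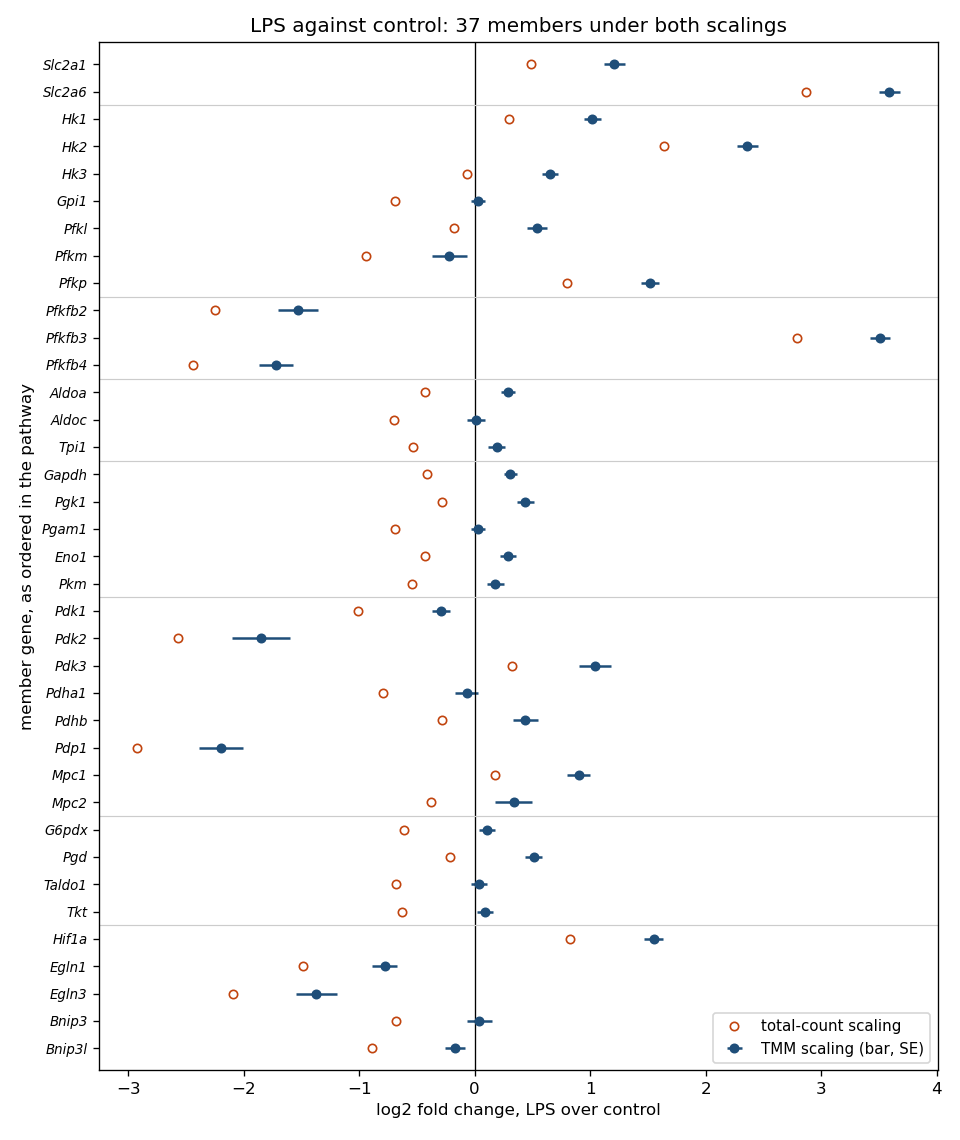
Log2 fold change of LPS over control for the 37 members, ordered by role with grey lines between roles; filled points show TMM scaling with the standard error (2 libraries a group) and open points total-count scaling. Every open point lies 0.72 log2 or nearly so to the left of its filled point, which leaves Slc2a6, Pfkfb3 and Hk2 above 1 under both scalings, and Pfkfb2, Pfkfb4, Pdk2, Pdp1 and Egln3 below −1 under both.

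The second comparison asked what lactic acid added to the LPS response. In LPS+LA over LPS, 13 members rose and 12 fell, beside 29.2% and 29.7% of all genes. Without LPS+LA replicate 1 the count of members that rose was 7. Under total-count scaling 23 were higher and 6 lower, beside 50.8% and 16.6%. The median log2 of the members was 0.04 against 0.03 over all genes, and 0.44 against 0.43 by total counts. With hydrochloric acid fewer members, and also a smaller share of all genes, were called. In LPS+HCl over LPS 4 members rose and 9 fell, beside 18.0% and 20.8% of all genes. By total counts 16 were higher and 2 lower, beside 37.1% and 10.7%. The median log2 of the members was −0.06 against 0.01 over all genes, and 0.17 against 0.25 by total counts.

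The acids were set against each other directly in LPS+LA over LPS+HCl. There 13 members were higher and 8 lower, beside 18.4% and 22.5% of all genes, and by total counts 20 and 5, beside 32.3% and 15.5%. The count of 13 was 6 without LPS+LA replicate 1, 6 without LPS+HCl replicate 1, 8 without LPS+HCl replicate 2 and 7 without both libraries that held neuron transcripts. The median log2 of the members was 0.11 against 0.00 over all genes, and 0.28 against 0.16 by total counts.

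Lactic acid was also given without LPS. In LA over control 15 members rose and 6 fell, beside 20.4% and 17.9% of all genes, and no member moved by a log2 of 1 or more. By total counts 10 were higher and 7 lower, beside 14.1% and 25.1%. The difference between the LA effect with LPS and the LA effect without it, the interaction, was called in 6 members upward and 13 downward, beside 20.4% and 23.9% of all genes. By total counts it was called in 22 upward and 7 downward, beside 48.4% and 10.6%, and 13 members were called in one direction under both scalings.

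**Figure D2:**
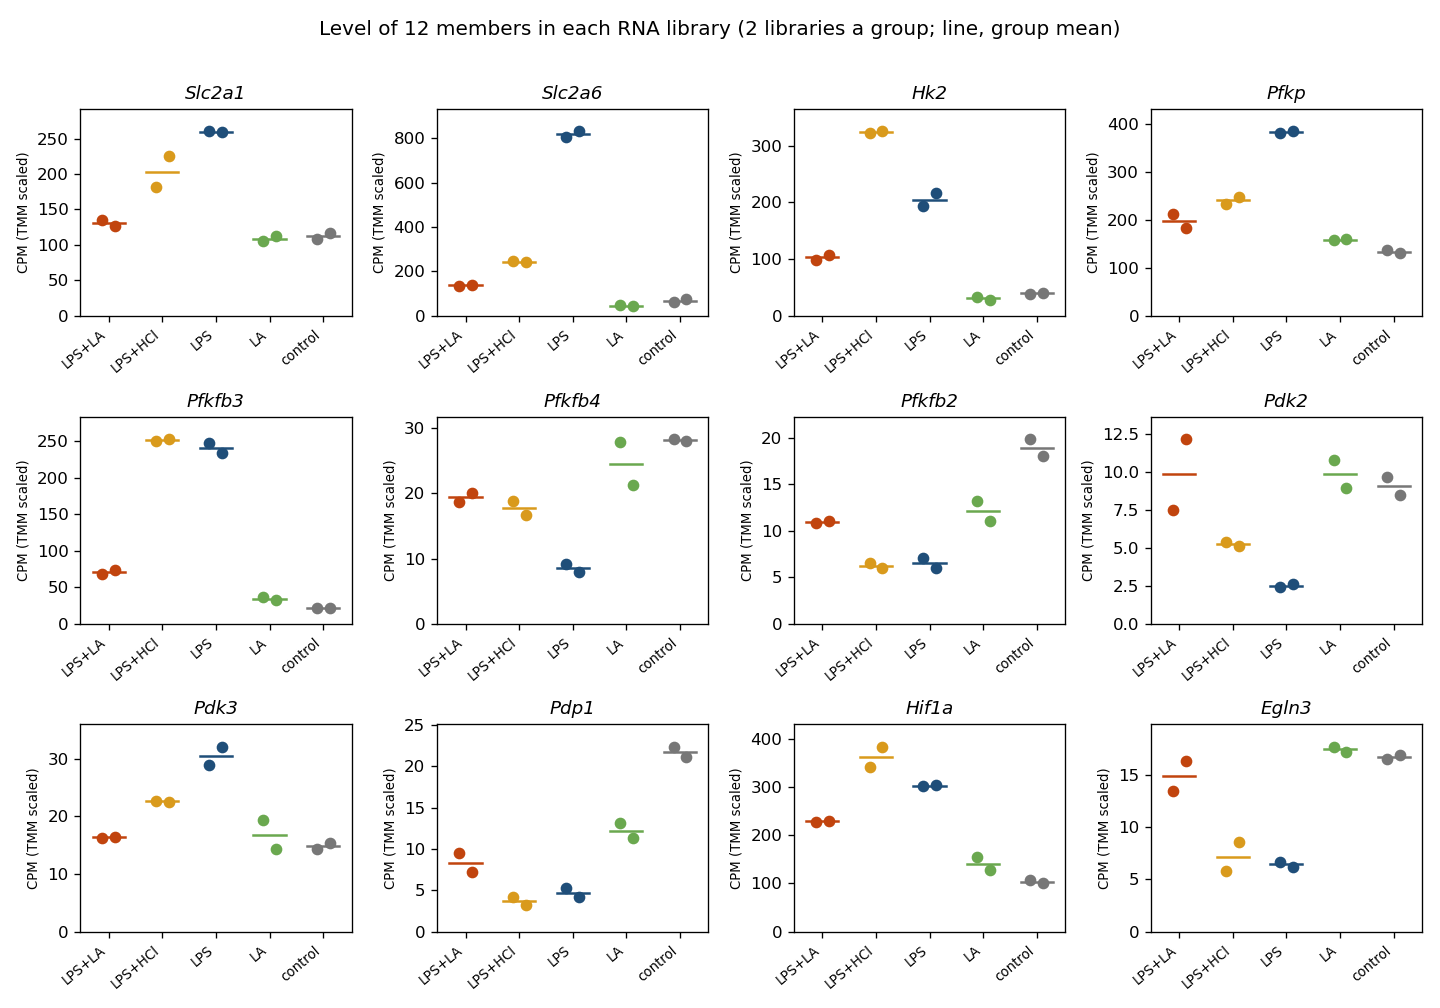
TMM-scaled CPM of 12 members in each of the 10 RNA libraries, with the groups LPS+LA, LPS+HCl, LPS, LA and control from left to right; points are libraries and lines group means, and each vertical axis starts at 0. Slc2a6 stands at 806 and 833 CPM in LPS and at 245 CPM or less elsewhere, Pfkfb3 stands at 250 and 253 CPM in LPS+HCl beside 247 and 234 CPM in LPS, and Pdk2, Pfkfb4 and Egln3 are lowest or near lowest in LPS.

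Levels were compared between genes on the deposited TPM, which are per length and sum to the same total in each library. In control, mean TPM were highest for Gapdh (7595.3), Aldoa (3005.5), Eno1 (2067.8) and Pkm (2038.7) and lowest for Pfkfb2 (7.37), Pdk2 (10.2), Pfkfb3 (11.6) and Pfkm (11.8). The abundant genes were enzymes of the triose steps, and the scarce ones mostly regulators. In LPS, Slc2a6 averaged 587 TPM and Pfkfb3 77.4 TPM, while Pfkfb2 (1.44), Pdp1 (1.69) and Pdk2 (1.70) were the lowest of the 37.

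The glucose transporters come first in the pathway. Slc2a6 (NCBI Gene 227659, chromosome 2, 27021363 to 27028000, GRCm38.p6) encodes GLUT6, a transporter found on inner membranes and known to be induced in inflammatory macrophages. It had 135 and 138 CPM in LPS+LA, 245 and 241 CPM in LPS+HCl, 806 and 833 CPM in LPS, 46.8 and 44.4 CPM in LA, and 60.8 and 75.3 CPM in control. No 2 groups overlapped, and the LPS libraries stood far above the rest. LPS raised it by a log2 of 3.59 (SE 0.09, edgeR adjusted p 1.01e-20), the largest rise among the 37 members under TMM, and by 2.87 under total-count scaling. It fell by 2.59 with LA on the log2 scale (SE 0.08, edgeR adjusted p 1.08e-17) and by 1.75 with HCl (SE 0.08, adjusted p 3.77e-14), both relative to LPS. LPS+LA was below LPS+HCl by a log2 of −0.84 (adjusted p 1.07e-08). LA alone also lowered it, by a log2 of −0.58 (adjusted p 1.23e-05), and the interaction was −2.01.

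Slc2a1 (NCBI Gene 20525, chromosome 4, 119108745 to 119137330) encodes GLUT1, the main glucose importer of the plasma membrane. It had 135 and 127 CPM in LPS+LA, 182 and 225 CPM in LPS+HCl, 261 and 259 CPM in LPS, 105 and 112 CPM in LA, and 108 and 117 CPM in control. The LA and control libraries overlapped, and LPS+LA stood closest to them. Relative to control, LPS raised it by a log2 of 1.21 (SE 0.09, edgeR adjusted p 1.61e-11), or 0.49 by total counts. It was lower in LPS+LA than in LPS by a log2 of −0.99 (adjusted p 8.97e-10), while LA without LPS gave −0.06, which missed the threshold, and the interaction was −0.93 (adjusted p 1.17e-06). With HCl it fell by 0.35 (adjusted p 0.00184), a call that ended by total counts at −0.12 and without LPS+HCl replicate 1 at −0.21.

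Hexokinases trap glucose in the cell by phosphorylating it. Hk2 (NCBI Gene 15277, chromosome 6), the inducible isozyme, had 98.4 and 108 CPM in LPS+LA, 323 and 326 CPM in LPS+HCl, 193 and 216 CPM in LPS, 32.7 and 28.7 CPM in LA, and 38.9 and 40.5 CPM in control. The 5 groups did not overlap, and LPS+HCl, not LPS, was the highest. LPS raised Hk2 by a log2 of 2.36 (SE 0.09, edgeR adjusted p 2.12e-17). The acids then went opposite ways from LPS: LA lowered it by −0.99 (adjusted p 2.57e-10) and HCl raised it by 0.67 (adjusted p 2.98e-07), and by total counts the values were −0.58 and 0.91, both called. Set directly against each other, LPS+LA was below LPS+HCl by −1.66 (SE 0.08, adjusted p 1.41e-13), and by −1.49 by total counts. LA alone lowered it by −0.37 (adjusted p 0.00206).

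The other hexokinases moved less. Hk1 (NCBI Gene 15275), the housekeeping isozyme, had 213 and 202 CPM in LPS+LA, 249 and 246 CPM in LPS+HCl, 302 and 294 CPM in LPS, 191 and 185 CPM in LA, and 138 and 157 CPM in control. It rose with LPS by a log2 of 1.02 (SE 0.07, edgeR adjusted p 1.39e-11) and LA alone raised it by 0.35 (adjusted p 0.000553), while in LPS+LA it was below LPS by −0.52 (adjusted p 1.37e-06). That fall was no longer called by total counts, at −0.12, but the interaction was called under both scalings, at −0.88 and −0.37. Hk3, the isozyme typical of myeloid cells, rose with LPS by 0.65 under TMM and was at −0.07 by total counts. It was below LPS with either acid, by −0.51 in LPS+LA and −0.39 in LPS+HCl, calls that total-count scaling ended.

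Phosphofructokinase commits glucose to glycolysis. Pfkp (NCBI Gene 56421, chromosome 13), its platelet isozyme, had 212 and 182 CPM in LPS+LA, 232 and 248 CPM in LPS+HCl, 380 and 385 CPM in LPS, 158 and 159 CPM in LA, and 136 and 131 CPM in control. The LPS libraries were the highest, and no 2 groups overlapped. LPS raised it by a log2 of 1.52 (SE 0.08, edgeR adjusted p 1.13e-14), and both acids lowered it from there, LA by −0.96 (adjusted p 1.04e-10) and HCl by −0.67 (adjusted p 1.07e-07). Those 3 calls held by total counts, at 0.80, −0.56 and −0.44. The liver isozyme Pfkl rose with LPS by 0.54 under TMM and was at −0.18, not called, by total counts. The muscle isozyme Pfkm was low, at 10.6 to 18.2 CPM in all libraries. Unlike Pfkp, it was higher in LPS+LA than in LPS (0.39, edgeR adjusted p 0.0292) and than in LPS+HCl (0.51, adjusted p 0.0081). By total counts these values were 0.79 and 0.68, both called. Whether they held with 1 library left out is not given here.

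The 3 PFKFB genes moved in different directions. Pfkfb3 (NCBI Gene 170768, chromosome 2, 11471430 to 11554071) encodes the isozyme with the strongest bias toward making the phosphofructokinase activator. It had 67.4 and 73.6 CPM in LPS+LA, 250 and 253 CPM in LPS+HCl, 247 and 234 CPM in LPS, 36.4 and 31.8 CPM in LA, and 21.1 and 21.2 CPM in control. LPS+HCl and LPS stood together at the top, LPS+LA far below them, and LA above control. LPS raised it by a log2 of 3.51 (SE 0.09, edgeR adjusted p 2.15e-20), or 2.79 by total counts. In LPS+LA it was below LPS by −1.77 (SE 0.08, adjusted p 5.57e-15), whereas in LPS+HCl the difference from LPS was 0.06 (SE 0.08) and missed the threshold under TMM, and by total counts it was 0.30 and called higher (adjusted p 0.0027). LPS+LA was below LPS+HCl by −1.84 (adjusted p 2.9e-14). Without LPS the direction of the LA effect turned, since LA raised it by 0.69 (adjusted p 2.28e-06), and the interaction of −2.46 (SE 0.12, adjusted p 9.06e-14) was the largest in size of the 37 genes under TMM. By total counts it was −1.95, smaller in size than those of Pdk2 (2.36) and Pdp1 (2.15).

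Pfkfb4 and Pfkfb2 went the other way. Pfkfb4 (NCBI Gene 270198, chromosome 9), an isozyme known as a hypoxia target, had 18.7 and 20.1 CPM in LPS+LA, 18.8 and 16.7 CPM in LPS+HCl, 9.14 and 8.0 CPM in LPS, 27.9 and 21.3 CPM in LA, and 28.4 and 28.0 CPM in control. LPS was the lowest group, and the 2 acid groups overlapped in between. LPS lowered it by a log2 of −1.72 (SE 0.15, edgeR adjusted p 4.15e-10), LA raised it over LPS by 1.18 (adjusted p 5.53e-07) and HCl by 1.05 (adjusted p 7.52e-06). LPS+LA and LPS+HCl differed by 0.13 (SE 0.14), which missed the threshold. Pfkfb2 (NCBI Gene 18640, chromosome 1), the isozyme of heart, had 10.8 and 11 CPM in LPS+LA, 6.51 and 5.97 CPM in LPS+HCl, 7.06 and 6.01 CPM in LPS, 13.2 and 11 CPM in LA, and 19.9 and 18.0 CPM in control. It fell with LPS by −1.53 (SE 0.17, adjusted p 2.7e-08) and rose with LA over LPS by 0.73 (adjusted p 0.00108), and LPS+LA was above LPS+HCl by 0.80 (adjusted p 0.000728), the HCl libraries overlapping those of LPS. Without LPS, LA lowered it by −0.65 (adjusted p 0.00179), and the interaction was 1.38 (adjusted p 3.62e-05).

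The isomerase Gpi1, the aldolases Aldoa and Aldoc and the triose phosphate isomerase Tpi1 complete the upper part of glycolysis, and Gapdh, Pgk1, Pgam1, Eno1 and Pkm form its lower, ATP-yielding part. Gapdh ran from 3671 to 5353 CPM over the 10 libraries and Aldoa from 1646 to 2558 CPM, while Aldoc was at 68.9 to 87.6 CPM. Under TMM 4 of the 5 lower glycolysis genes rose with LPS, with log2 values of 0.03 (Pgam1, not called) to 0.44 (Pgk1), and by total counts all 5 were lower, at −0.69 to −0.28. The Pkm call under TMM was lost without control replicate 1 or either LPS library. In LPS+LA over LPS, Gpi1, Aldoa, Aldoc and Tpi1 were called higher under both scalings, at 0.21 to 0.26 and, by total counts, 0.61 to 0.66. Whether each of these calls held with 1 library left out is not given here. With LA over LPS, Pgam1 was the 1 lower glycolysis gene called under TMM, at 0.16 (edgeR adjusted p 0.0308), a call lost when either LPS or LPS+HCl library or LPS+LA replicate 1 was left out (0.13 to 0.19), and by total counts all 5 were higher, at 0.26 to 0.57. The LA rise without LPS was small but seen in both scalings for Aldoa (0.37 and 0.26), Tpi1 (0.35 and 0.25), Gapdh (0.34 and 0.24) and Eno1 (0.38 and 0.27). The interaction of Gapdh was called under both scalings with opposite signs, −0.22 under TMM and 0.29 by total counts, and the TMM call was lost when any 1 library other than control replicate 2 was left out. Deposited counts of Gapdh were not whole in 9 of 10 libraries and those of Eno1 in 7, as when an estimate divides reads between similar sequences, so small changes in them are uncertain.

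Among the genes at the entry of pyruvate into the mitochondrion, PDH kinases, a PDH phosphatase and the pyruvate carriers had calls under both scalings. Pdk2 (NCBI Gene 18604, chromosome 11), a PDH kinase, had 7.49 and 12.2 CPM in LPS+LA, 5.40 and 5.14 CPM in LPS+HCl, 2.40 and 2.64 CPM in LPS, 10.8 and 8.93 CPM in LA, and 9.70 and 8.46 CPM in control. LPS was the lowest group, LPS+HCl lay between, and LPS+LA overlapped LA and control. LPS lowered it by a log2 of −1.85 (SE 0.25, edgeR adjusted p 6.94e-07), LA raised it over LPS by 1.96 (SE 0.25, adjusted p 4.23e-07) and HCl by 1.06 (SE 0.27, adjusted p 0.00262). LPS+LA was above LPS+HCl by 0.90 (adjusted p 0.00233), which was 0.51 and not called without LPS+LA replicate 2.

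Pdk3 (NCBI Gene 236900, chromosome X), a PDH kinase that pyruvate inhibits little, moved in the opposite direction. It had 16.2 and 16.5 CPM in LPS+LA, 22.7 and 22.5 CPM in LPS+HCl, 29.0 and 32.1 CPM in LPS, 19.3 and 14.4 CPM in LA, and 14.3 and 15.3 CPM in control. With LPS it rose by a log2 of 1.04 (SE 0.14, edgeR adjusted p 3.7e-07), or 0.32 by total counts, and it was lower in LPS+LA by −0.90 (adjusted p 4.84e-06) and in LPS+HCl by −0.43 (adjusted p 0.0125), the HCl call ending by total counts at −0.20 and without LPS replicate 2 or either LPS+HCl library. Pdk1, the PDH kinase best known as a HIF-1 target, fell with LPS by −0.29 and with LA alone by −0.34, both also by total counts (−1.01 and −0.44), and the LPS call under TMM was lost without LPS replicate 1, at −0.21.

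Pdp1 (NCBI Gene 381511, chromosome 4) encodes a phosphatase that reactivates PDH. It had 9.47 and 7.22 CPM in LPS+LA, 4.17 and 3.26 CPM in LPS+HCl, 5.31 and 4.16 CPM in LPS, 13.1 and 11.3 CPM in LA, and 22.4 and 21.1 CPM in control. Control was highest, and LPS+HCl and LPS overlapped at the bottom. LPS lowered it by a log2 of −2.20 (SE 0.19, edgeR adjusted p 4.81e-10), the largest fall among the 37 members under TMM. LA raised it over LPS by 0.81 (adjusted p 0.00157), HCl gave −0.35 (SE 0.23) and missed the threshold, and LPS+LA was above LPS+HCl by 1.17 (adjusted p 8.02e-05). Without LPS, LA lowered it by −0.83 (adjusted p 0.000392), and the interaction was 1.64 (adjusted p 1.84e-05).

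Calls of the PDH subunits depended on the scaling, while the pyruvate carriers were called under both scalings with LA alone. Pdha1, the catalytic alpha subunit, was called in none of the 6 comparisons under TMM, with 47.1 to 60.3 CPM over the libraries. By total counts it was called lower with LPS (−0.79), and higher in LPS+LA over LPS (0.49), in LPS+LA over LPS+HCl (0.30) and for the interaction (0.49). Pdhb, the beta subunit, was called with LPS alone, in opposite directions under the 2 scalings (0.44 and −0.28). Mpc1 and Mpc2, which together form the mitochondrial pyruvate carrier, rose with LA alone by 0.60 and 0.61, and by 0.50 and 0.51 by total counts, the Mpc2 call under TMM being lost without control replicate 2 (0.46) or LA replicate 2 (0.42). Mpc1 also rose with LPS by 0.90 under TMM (0.18 and not called by total counts).

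The pentose phosphate pathway makes NADPH and ribose. Its first enzyme, encoded by G6pdx, was lower in LPS+HCl than in LPS by a log2 of −0.26 (edgeR adjusted p 0.00408), a call that ended by total counts at −0.02 and without LPS+HCl replicate 2 at −0.22. In LPS over control it was not called under TMM (0.11) and was called lower by total counts (−0.61). Pgd, which yields the second NADPH, rose with LPS by 0.51 under TMM and was called lower by total counts (−0.21). It was below LPS with either acid (−0.39 in LPS+LA, −0.38 in LPS+HCl), and the acid calls ended by total counts at 0.01 and −0.14. In the non-oxidative branch Taldo1, the transaldolase gene, was higher with LA both over LPS (0.32, adjusted p 0.000595) and over control (0.38, adjusted p 0.000233), calls that held by total counts at 0.72 and 0.27. Tkt, the transketolase gene, was called in no comparison under TMM, with 590 to 681 CPM over the libraries. By total counts it was called lower with LPS (−0.63), and higher in LPS+LA over LPS (0.40), in LPS+HCl over LPS (0.23), in LPS+LA over LPS+HCl (0.17) and for the interaction (0.39).

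Hif1a (NCBI Gene 15251, chromosome 12, 73901324 to 73947554) encodes the regulated subunit of HIF-1. It had 228 and 230 CPM in LPS+LA, 341 and 384 CPM in LPS+HCl, 302 and 304 CPM in LPS, 154 and 128 CPM in LA, and 107 and 100 CPM in control. No 2 groups overlapped, and as for Hk2 the HCl libraries were highest. LPS raised it by a log2 of 1.55 (SE 0.08, edgeR adjusted p 9.43e-14), or 0.83 by total counts. LPS+HCl was above LPS by 0.26 (adjusted p 0.0145), a call lost without either LPS library and without LPS+HCl replicate 2, at 0.17 to 0.26. LPS+LA was below LPS by −0.40 (adjusted p 0.000197), although by total counts that second difference was 0.00. LPS+LA was below LPS+HCl under both scalings, by −0.66 (adjusted p 6.44e-07) and −0.50. LA alone raised it by 0.45 (adjusted p 0.000202).

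Of the prolyl hydroxylase genes, Egln1 and Egln3 fell with LPS under both scalings, while Egln2, from the list of other pathway genes, was called higher under TMM (0.48) and lower by total counts (−0.24). Egln3 (NCBI Gene 112407, chromosome 12), itself a HIF target, had 13.5 and 16.3 CPM in LPS+LA, 5.79 and 8.56 CPM in LPS+HCl, 6.67 and 6.21 CPM in LPS, 17.7 and 17.2 CPM in LA, and 16.5 and 16.9 CPM in control. LPS+HCl and LPS overlapped at the bottom, and LPS+LA stood just under LA and control. LPS lowered it by a log2 of −1.37 (SE 0.18, edgeR adjusted p 3.82e-07) and LA raised it over LPS by 1.21 (SE 0.18, adjusted p 4.33e-06). HCl gave 0.15 (SE 0.20), which missed the threshold and was −0.16 without LPS+HCl replicate 2, and LPS+LA was above LPS+HCl by 1.05 (adjusted p 3.57e-05). Egln1 (NCBI Gene 112405), the main oxygen sensor, had 39.4 and 35.8 CPM in LPS+LA, 25.3 and 30.5 CPM in LPS+HCl, 33.3 and 28.7 CPM in LPS, 42.6 and 39.5 CPM in LA, and 50.5 and 55.6 CPM in control. It fell with LPS by −0.78 (adjusted p 1.58e-06) and with LA alone by −0.37 (adjusted p 0.0077), and was higher in LPS+LA than in LPS by 0.28 (adjusted p 0.0388). The LPS+LA call was lost without LPS replicate 2 (0.18) or LPS+LA replicate 1 (0.22), and the LA call without control replicate 2 (−0.30) or LA replicate 2 (−0.32). Bnip3 and Bnip3l, mitophagy receptors often used as HIF-1 markers, were called in none of the 6 comparisons under TMM, at 37.3 to 46.9 and 64.1 to 80.1 CPM. By total counts Bnip3 and Bnip3l were called lower with LPS (−0.68 and −0.89), and higher in LPS+LA over LPS (0.40 and 0.44), in LPS+LA over LPS+HCl (0.29 and 0.22) and for the interaction (0.59 and 0.64). Bnip3l was also called higher in LPS+HCl over LPS (0.23).

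The effect of lactic acid on several of these genes had opposite directions with and without LPS. Under TMM 7 members were called both ways: Hk1, Pfkp, Pfkfb3 and Hif1a were lower with LA over LPS and higher with LA over control, and Pfkfb2, Pdp1 and Egln1 the reverse. Under both scalings this held for 4 of them, Pfkfb3, Pfkfb2, Pdp1 and Egln1, and the interaction of each was called under both. Slc2a6 and Hk2 were lower, and Aldoa, Tpi1 and Taldo1 higher, with LA in both settings and under both scalings. The 2 LA comparisons share no library. With LA over LPS 29.2% of all tested genes rose and 29.7% fell, and with LA over control 20.4% and 17.9%, under TMM. No share of all genes called in opposite directions is given, so these counts do not set the members apart.

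**Figure D3:**
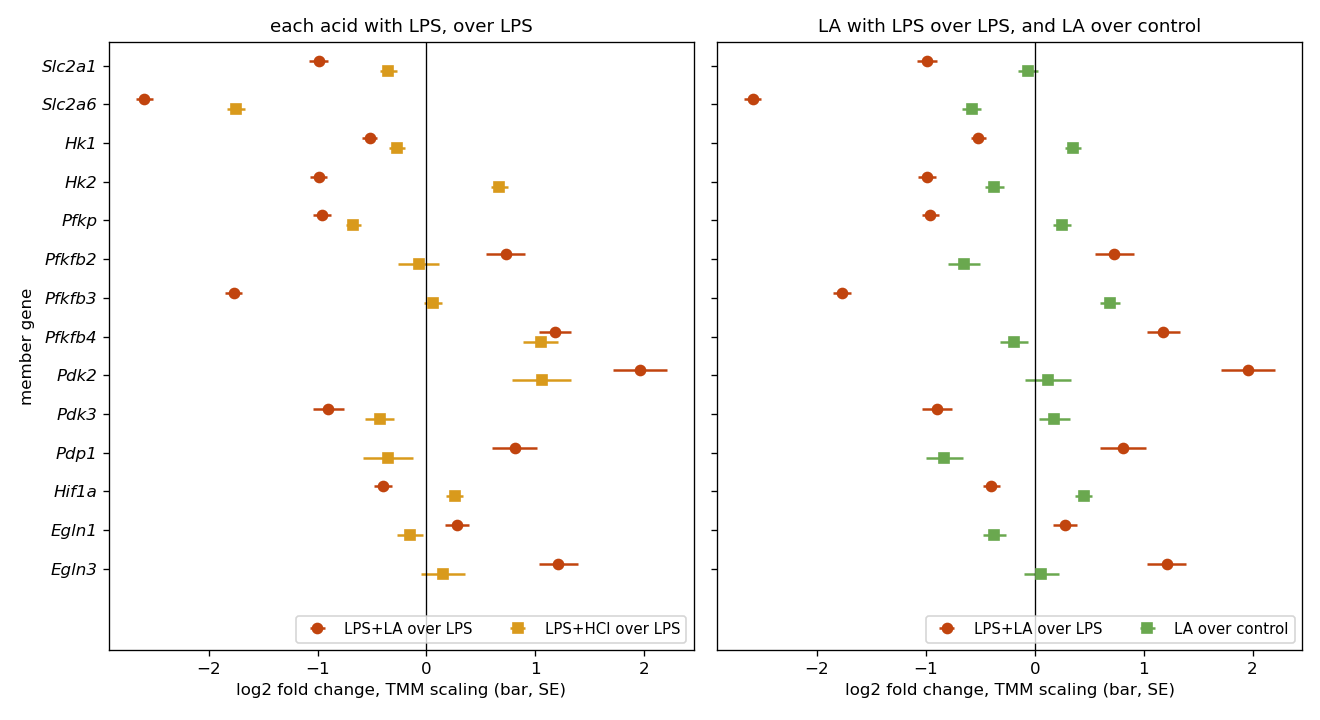
Log2 fold change under TMM with the standard error (2 libraries a group) for 14 members; the left panel sets LPS+LA over LPS (circles) beside LPS+HCl over LPS (squares), which share the LPS libraries, and the right panel sets LPS+LA over LPS (circles) beside LA over control (squares). Hk2 and Hif1a lie on opposite sides of 0 in the left panel, Hif1a moving to 0.00 with LA by total counts, Pfkfb3 is at −1.77 with LA and 0.06 with HCl, and Pfkfb2, Pfkfb3 and Pdp1 lie on opposite sides in the right panel.

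Shares within an enzyme family do not depend on the scaling of libraries, so they were taken from the deposited TPM, which are per length. They are given as a description, with no test. Of the TPM of Pfkfb2, Pfkfb3 and Pfkfb4, Pfkfb3 held 66.2% and 67.6% in LPS+LA, 89.0% and 90.1% in LPS+HCl, 93.3% and 93.8% in LPS, 43.6% and 46.7% in LA, and 28.6% and 29.3% in control. Pfkfb4 held 25.8% and 24.9% in LPS+LA, 9.39% and 8.25% in LPS+HCl, 4.83% and 4.54% in LPS, 45.8% and 42.4% in LA, and 52.3% and 53.2% in control. The main PFKFB transcript was thus Pfkfb4 in control and Pfkfb3 in every library that had LPS. Of the TPM of Hk1, Hk2 and Hk3, Hk2 held 11.8% and 13.1% in LPS+LA, 28.2% and 28.7% in LPS+HCl, 15.5% and 17.4% in LPS, 4.83% and 4.24% in LA, and 6.50% and 6.0% in control. Hk3 held the largest TPM share in each of the 10 libraries, but not in LPS+HCl by counts without length scaling. Of the TPM of Pdk1, Pdk2 and Pdk3, Pdk2 held 14.0% and 19.8% in LPS+LA, 8.87% and 8.27% in LPS+HCl, 3.38% and 3.49% in LPS, 15.8% and 15.1% in LA, and 14.3% and 12.5% in control.

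**Figure D4:**
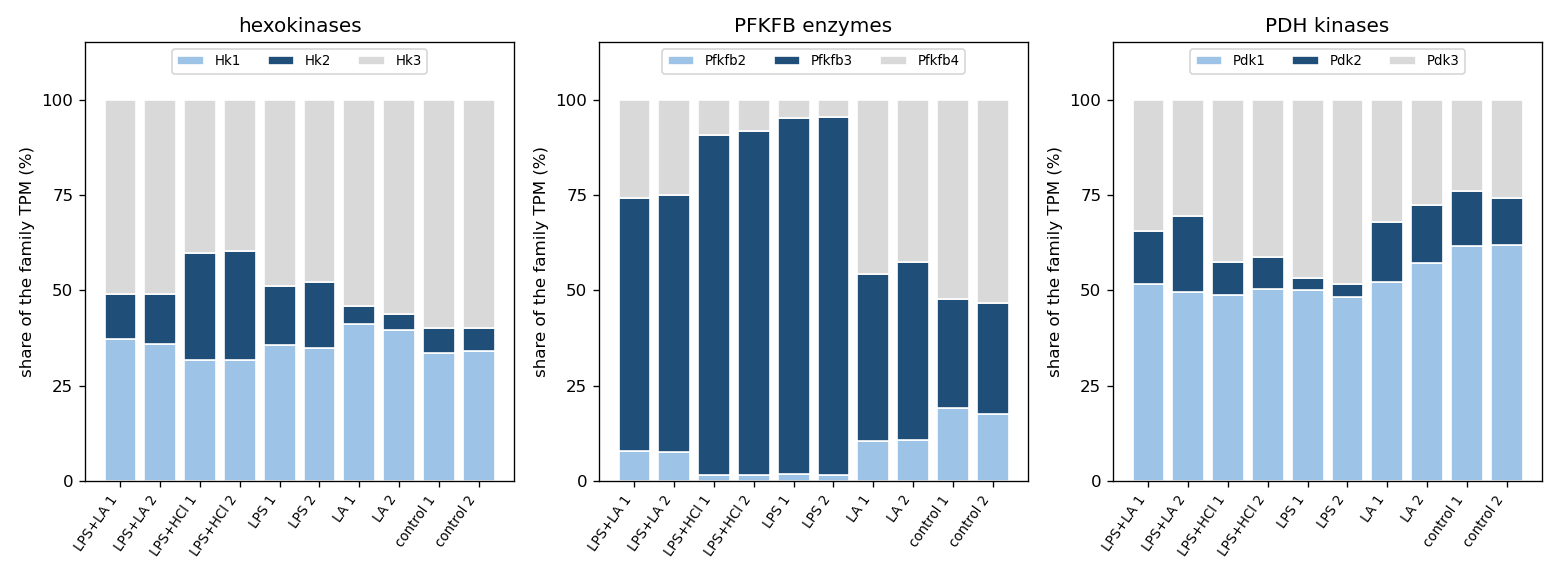
Share of each isozyme in the summed deposited TPM of its family (%), in each of the 10 RNA libraries, for hexokinases, PFKFB enzymes and PDH kinases. Pfkfb3 takes 93.3% and 93.8% in LPS and 66.2% and 67.6% in LPS+LA, against 28.6% and 29.3% in control, and Hk2 is widest in LPS+HCl, at 28.2% and 28.7%.

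Other genes of these pathways were followed in a list of 55, of which 46 were tested. With LPS 16 rose and 17 fell, beside 32.4% and 32.4% of all tested genes. In LPS+LA over LPS 19 rose and 14 fell (29.2% and 29.7% of all genes), and in LPS+HCl over LPS 10 rose and 8 fell (18.0% and 20.8%). In LPS+LA over LPS+HCl 14 were higher and 8 lower (18.4% and 22.5%), and in LA over control 14 rose and 6 fell (20.4% and 17.9%). By total counts 5 were higher and 31 lower with LPS (14.4% and 67.9%), and 27 and 9 in LPS+LA over LPS (50.8% and 16.6%). They were 17 and 5 in LPS+HCl over LPS (37.1% and 10.7%), 19 and 5 in LPS+LA over LPS+HCl (32.3% and 15.5%), and 10 and 8 in LA over control (14.1% and 25.1%). The largest absolute log2 in each of these comparisons was that of a hypoxia gene. Hypoxia genes were the largest group in this list, which was chosen with earlier results known, so the ranking does not set them apart. Bhlhe40, a transcriptional repressor induced by hypoxia, had 157 and 135 CPM in LPS+LA, 62.8 and 67.2 CPM in LPS+HCl, 15.4 and 16.3 CPM in LPS, 133 and 123 CPM in LA, and 58.7 and 66.8 CPM in control. It fell with LPS by a log2 of −1.98, and rose over LPS with LA by 3.20 (SE 0.11, edgeR adjusted p 1.83e-17) and with HCl by 2.03 (adjusted p 4.76e-13).

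Mxi1, an antagonist of Myc, had 116 and 128 CPM in LPS+LA, 117 and 118 CPM in LPS+HCl, 16.2 and 18.4 CPM in LPS, 110.0 and 100.0 CPM in LA, and 25.3 and 28.1 CPM in control. All acid libraries stood above all others, and it rose by 2.82 in LPS+LA over LPS, 2.76 in LPS+HCl over LPS and 1.98 in LA over control. Vegfa, the angiogenic growth factor, had 53.4 and 62.8 CPM in LPS+LA, 72.5 and 79.8 CPM in LPS+HCl, and 8.10 and 7.07 CPM in LPS, rises of 2.94 and 3.33 over LPS. Zfp395 had 22.2 and 23.3 CPM in LPS+LA, 5.23 and 4.36 CPM in LPS+HCl, 0.389 and 0.661 CPM in LPS, 74.1 and 64.1 CPM in LA, and 53.2 and 47.1 CPM in control, the interaction being 4.96 (adjusted p 6.84e-13). Ndrg1 and Cited2, both also known to respond to hypoxia, went the other way. Ndrg1 fell with HCl over LPS by −1.52 (adjusted p 3.04e-12), and the interactions of Ndrg1 and Cited2 were −1.51 and −1.38. Cited2, an inhibitor of HIF-1 transactivation, rose with LPS by 3.68, to 2066.2 and 2094.4 CPM in LPS, against 149 and 177 CPM in control. Ddit4, an inhibitor of mTORC1, rose with LA alone by 1.49, and Ankrd37, a hypoxia-induced gene, and Shpk, a sedoheptulose kinase of the pentose phosphate pathway, were higher in LPS+LA than in LPS+HCl by 2.02 and 1.80 at levels of at most 3.48 CPM in those libraries.

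Open chromatin near the 37 genes was read from the peaks called in each ATAC sample, 76680 to 100667 per sample. Merged at an overlap of at least 1 bp, they gave 127890 sites, 271 of them within 10 kb of a member. Of these 271, 158 (58.3%) had a peak in all 12 samples, against 43.9% of all sites. The 271 include promoters of tested genes, and no share for sites near other tested genes is given, so this difference does not set the members apart. A site was gained where all 3 samples of one group and no sample of the other had a peak, and lost in the reverse case. No reads per site were given in the peak lists, and a site with no peak may still have been open below the threshold of the caller. In LPS over control 19 member sites were gained and 1 lost, beside 8.27% and 2.44% of all sites, the members' shares being 7.01% and 0.369%. The 1 lost site depended on single samples, with 4 lost without control replicate 2 or without LPS replicate 1, 3 without control replicate 3, and 2 without control replicate 1 or LPS replicate 2. Control and LPS were sequenced on lane 5 and LPS+LA and LA on lane 6, per the file headers, so in ATAC-seq the effect of LA and the lane cannot be told apart. In LPS+LA over LPS 5 member sites (1.85%) were gained and 6 (2.21%) lost, beside 2.24% and 2.29% of all sites. Without LPS+LA replicate 1 the gained sites were 9, and without LPS replicate 3 they were 8 and the lost sites 11. In LA over control 7 (2.58%) were gained and 4 (1.48%) lost, beside 1.53% and 2.38%, and the lost sites were 8 without control replicate 2, 7 without control replicate 3 and 7 without LA replicate 2.

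Sites and RNA did not always move the same way. Within Pfkfb3, the site at chr2:11515886-11516286 had a peak in 0 of 3 LPS+LA samples, 3 of 3 LPS samples, 0 of 3 LA samples and 0 of 3 control samples. Another, at chr2:11482623-11483020, had a peak in 3 of 3 LPS+LA and 3 of 3 LA samples and in 0 of 3 LPS and 0 of 3 control samples, the split that follows the lane. Near Slc2a6, chr2:27015613-27016233 had a peak in 1 LPS+LA sample, 3 LPS samples, 0 LA samples and 0 control samples. Within Pfkp, chr13:6627383-6627648 had a peak in all 3 LPS samples and in 0 of the other 9. Hif1a had 3 sites gained with LPS, and near Pdp1 chr4:11950916-11951213 had a peak in the 3 control samples and in 0 of the other 9. Near Pfkfb4, whose RNA fell with LPS, chr9:108982478-108983112 was gained, with a peak in 3 LPS+LA, 3 LPS, 3 LA and 0 control samples, and Pdk1, whose RNA also fell with LPS, had 2 sites gained. Within Pfkp, whose RNA was lower in LPS+LA than in LPS, chr13:6642481-6642737 was gained in LPS+LA over LPS, with a peak in 3 LPS+LA, 0 LPS, 3 LA and 2 control samples. Coordinates are of GRCm38, and the positions were set against gene bounds, not exons.

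Promoters were open in all groups. Of the 37 members, 35 had a promoter window, 250 bases before to 50 after a start, in RefSeq's table for GRCm38.p6, and each of the 35 had at least 1 window with a peak in all 12 samples, against 87.7% of the 9797 tested genes with a window and 39.6% of all 27025 genes. Pdp1 and Bnip3l were not analysed here. Among the 35, members that rose and members that fell alike had a promoter peak in every sample, and the presence of a peak does not measure how open a promoter is. A second window of Pkm had a peak in 0 LPS+LA, 3 LPS, 0 LA and 3 control samples, the split that follows the lane.

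HIF-1 binds the core ACGTG or GCGTG, and E-box factors such as Myc bind CACGTG. On either strand, ACGTG was in a window of 21 of 35 members (60.0%), against 29.4% of the 9797 tested genes. GCGTG was in 71.4% of the members, against 55.7%, and CACGTG in 17.1%, against 11.8%. A gene with more windows has more places for a match, so the shares were also taken by window. ACGTG was in 48.1% of the 52 member windows, against 25.3% of the 12515 windows of tested genes. For GCGTG the shares by window were 57.7% against 49.8%, and for CACGTG 11.5% against 9.84%. Each CACGTG also holds ACGTG on both strands. The 250 bases before the start are printed, from RefSeq (GRCm38.p6), for 5 members whose RNA carried the contrasts above, 5′ to 3′ on the gene's strand, with ACGTG, its reverse complement CACGT and CACGTG in capitals. Such a match is a description and not a bound site.
Hk2 (chr6:82774455-82774704, minus strand): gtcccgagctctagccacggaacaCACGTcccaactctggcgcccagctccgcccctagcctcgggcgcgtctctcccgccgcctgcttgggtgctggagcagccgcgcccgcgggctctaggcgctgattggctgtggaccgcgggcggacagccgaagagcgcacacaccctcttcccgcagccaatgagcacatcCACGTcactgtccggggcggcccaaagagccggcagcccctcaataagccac
Pfkfb3, distal window (chr2:11553930-11554179, minus strand): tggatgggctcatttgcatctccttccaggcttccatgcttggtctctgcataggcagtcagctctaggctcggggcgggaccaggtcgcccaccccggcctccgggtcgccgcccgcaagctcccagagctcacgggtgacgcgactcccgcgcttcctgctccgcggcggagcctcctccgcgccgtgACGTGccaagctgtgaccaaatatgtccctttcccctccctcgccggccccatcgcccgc
Pfkfb3, second window (chr2:11502091-11502340, minus strand): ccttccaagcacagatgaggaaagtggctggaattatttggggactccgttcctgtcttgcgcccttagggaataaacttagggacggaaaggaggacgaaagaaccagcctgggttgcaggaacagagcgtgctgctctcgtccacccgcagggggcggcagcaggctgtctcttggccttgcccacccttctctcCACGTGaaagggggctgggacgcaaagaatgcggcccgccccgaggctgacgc
Pdk2 (chr11:95041372-95041621, minus strand): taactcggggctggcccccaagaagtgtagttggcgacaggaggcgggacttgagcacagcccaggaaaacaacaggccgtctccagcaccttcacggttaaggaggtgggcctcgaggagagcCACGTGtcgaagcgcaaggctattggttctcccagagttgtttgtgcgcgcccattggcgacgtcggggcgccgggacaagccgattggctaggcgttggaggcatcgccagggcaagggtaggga
Egln3 (chr12:54203875-54204124, minus strand): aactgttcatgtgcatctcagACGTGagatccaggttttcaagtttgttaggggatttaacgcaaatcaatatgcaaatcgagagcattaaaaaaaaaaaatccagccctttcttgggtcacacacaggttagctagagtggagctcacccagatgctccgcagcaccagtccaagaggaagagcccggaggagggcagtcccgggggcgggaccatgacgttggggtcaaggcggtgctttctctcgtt
Hif1a (chr12:73907617-73907866, plus strand): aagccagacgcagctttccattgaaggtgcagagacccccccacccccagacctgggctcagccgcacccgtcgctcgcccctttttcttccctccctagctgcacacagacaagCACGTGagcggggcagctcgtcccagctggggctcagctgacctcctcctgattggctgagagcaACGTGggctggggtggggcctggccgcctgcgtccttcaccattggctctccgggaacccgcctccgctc

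In Hk2 both cores read CACGT, beginning 226 and 52 bases before the start. In Pfkfb3 the distal window holds ACGTG 60 bases before its start, and the second window holds CACGTG 53 bases before its start. Hk2 and Pfkfb3 rose with LPS, and Pdk2 and Egln3 fell, so the same letters stood upstream of members that moved in opposite directions. Slc2a6, with the largest rise, and Pfkfb4 had no ACGTG in their windows, and both had GCGTG.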

How the data were processed

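For RNA the authors deposited 1 table that gives every gene and library an expected count, its FPKM and its TPM, and the submitters' processing notes name HISAT, Bowtie2 and GRCm38.p6. The counting tool and its use of strand are not given in the sources used here, and reads of antisense genes that overlap cannot be separated. Among the expected counts as deposited, 6.07% had a fraction, and each was rounded. For ATAC-seq the authors deposited peaks per sample with a score, made with MACS2 2.0.10 on mm10 (GRCm38), per the submitters' processing notes, which also name BWA 0.5.9 and Picard. No source used here gives a shift of reads for the transposase.

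Genes were kept by filterByExpr (minimum count 10, minimum total 15), scaled by TMM, and fitted with 1 term per group over all 10 libraries in edgeR 4.0.16 under R 4.3.3 (glmQLFit, robust; quasi-likelihood test, two-sided, Benjamini-Hochberg threshold 0.05). Shares used the deposited TPM, and the deposited FPKM served as an alternative. The score ranked peaks within a sample. Alternatives were total-count scaling, DESeq2 1.42.0 size factors and its Wald test, no low-count filter, fits of the compared groups alone, a replicate block, and libraries left out. Only the edgeR test of LPS+LA over LPS was tried on simulated counts, with far fewer changed genes than were called in the data. The scalings, the interaction and the site, motif and share steps were not simulated. Samples were grouped by their labels.

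Values per library are given for members called under both scalings in one direction with an absolute log2 of at least 1 under TMM, and for members whose interaction was called under both. From the 55 other genes, up to 4 per comparison with the smallest adjusted p were named by the same thresholds. The members and lists were chosen with earlier results of these data known.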

Additional observations from a re-analysis of the deposited data

Results flagged for a closer look

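The effect of LA on these genes differed between cells with LPS and cells without it in 19 of the 37 members, by edgeR's quasi-likelihood test of the difference with Benjamini-Hochberg adjustment over 12213 genes. Under TMM 6 were upward and 13 downward, beside 20.4% and 23.9% of all tested genes. As log2 differences, LA effect with LPS minus LA effect without it, 13 of the 19 were called in one direction under both scalings. No share of all genes is given beside that count of 13. Of these, 7 were negative: Slc2a1 −0.93, Slc2a6 −2.01, Hk1 −0.88, Pfkp −1.21, Pfkfb3 −2.46, Pdk3 −1.09 and Hif1a −0.85. The other 6 were positive: Pfkfb2 1.38, Pfkfb4 1.37, Pdk2 1.85, Pdp1 1.64, Egln1 0.65 and Egln3 1.15. The rest were negative under TMM and not called by total counts (Hk2 −0.62, Hk3 −0.49, Pgk1 −0.36, Mpc1 −0.81 and Pgd −0.37), except Gapdh, at −0.22 under TMM and 0.29, called, by total counts. Whether the LA dose without LPS equalled that with LPS is not known here.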

How the results depend on the processing

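The rule that named 38 member values asked for a call in the same direction under both scalings, so their total-count alternatives were fixed in advance. With these included, the 38 values kept their direction and their side of the threshold in all 646 alternatives run for them. Counts did not: under total-count scaling members higher and lower were 8 and 26 in LPS over control, 23 and 6 in LPS+LA over LPS, 16 and 2 in LPS+HCl over LPS, 20 and 5 in LPS+LA over LPS+HCl, and 22 and 7 for the interaction, because each log2 moves by about the scaling shift. Among values called under TMM, these turned sign by total counts: in LPS over control Hk3 −0.07, Pfkl −0.18, Aldoa −0.43, Tpi1 −0.53, Gapdh −0.41, Pgk1 −0.28, Eno1 −0.43, Pkm −0.54, Pdhb −0.28 and Pgd −0.21; in LPS+LA over LPS Pfkl 0.08, Pdk1 0.14 and Pgd 0.01; in LPS+HCl over LPS Pfkl 0.00; for the interaction Hk3 0.02, Gapdh 0.29, Pgk1 0.16 and Pgd 0.14. Of values printed but not called under TMM, in LPS over control G6pdx was −0.61 by total counts, called, and 0.15 by DESeq2's Wald test, called, and Pgam1 was −0.69 by total counts, −0.01 to 0.07 with 1 library left out, the lowest without control replicate 1, and 0.00 without both libraries with neuron transcripts. Pfkfb3 in LPS+HCl over LPS was 0.30 by total counts. Egln3 in LPS+HCl over LPS ranged from −0.16 to 0.41 with 1 library left out, the lowest without LPS+HCl replicate 2, and was −0.16 without both libraries with neuron transcripts. Over 132 gene values, 141 alternatives lost the call with the sign kept, and 24 turned sign, whether or not the call was lost as well. Of the 141, 20 were by total counts, 17 without both libraries with neuron transcripts and 16 without LPS+LA replicate 1. By total counts 20 others turned sign, and some of those also lost the call. Without both libraries 7 members were higher in LPS+LA over LPS+HCl. The cause was not tested.

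With 1 RNA library left out, members higher and lower ranged from 17 to 20 and 6 to 8 in LPS over control, 12 to 16 and 5 to 7 in LA over control, 7 to 15 and 11 to 13 in LPS+LA over LPS, 3 to 4 and 6 to 9 in LPS+HCl over LPS, 6 to 13 and 6 to 8 in LPS+LA over LPS+HCl, and 6 to 6 and 12 to 17 for the interaction. The lone library left in a group was assumed to vary like the others. With replicate number as a block, 12 members were higher in LPS+LA over LPS+HCl where 13 were without it, and the other counts of members were equal. Deviations of same-numbered libraries correlated at −0.503 between LPS+HCl and control, whose replicates 2 and 1 held the neuron transcripts, and at −0.0518 to 0.0495 between the other groups.

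By counts without length scaling, the mean shares of Hk2, Pfkfb3 and Pdk2 in their families were 18.9%, 70.0% and 11.5% in LPS+LA, 39.2%, 91.3% and 5.90% in LPS+HCl, 24.3%, 94.1% and 2.44% in LPS, 7.15%, 48.3% and 10.4% in LA, and 9.91%, 31.0% and 8.27% in control. By these counts Hk2, and not Hk3 (30.9%), held the largest hexokinase share in LPS+HCl. With only peaks scored above the median of their sample, member sites gained and lost were 6 and 4 in LPS over control and 9 and 2 in LPS+LA over LPS, and 2 were lost in LA over control. Within 50 kb they were 43 and 11 in LPS over control, 12 and 13 in LPS+LA over LPS, and 13 and 12 in LA over control. With 1 ATAC sample left out, sites gained and lost ranged from 19 to 28 and 1 to 4 in LPS over control, 7 to 10 and 4 to 8 in LA over control, and 5 to 9 and 6 to 11 in LPS+LA over LPS. Low counts limit Pdp1, Pdk2, Egln3, Pfkfb2, Pfkm and Mpc2, at under 25 CPM in every library. Peak lists without reads limit every statement on sites.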
